A study of Saccharomyces cerevisiae with 32 samples.

Results

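Setting ded1-ts beside DED1-TS at 37 °C asked how a heat-sensitive form of Ded1 changes the translation and abundance of each mRNA in budding yeast. It covered 5222 reading frames, of 5446 in the whole series. They were all the frames of this comparison whose mean deposited level over both strains was at least 50 in footprints and in mRNA, with the mean taken on the log2 scale. Of the 5432 frames listed for these strains, 210 fell short of that level, 197 in footprints and 86 in mRNA, with some short in both. The closest frames inside were ZNF1, RGM1, ADY2, MSH5 and YEL023C, with 50.2 to 51.3 as the lower of their 2 mean levels. The closest outside were IDP2, MUM3, PAU2, YNR064C and MOR1, with 46.9 to 49.5.

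The mutant strain carried ded1-ts and the control strain carried DED1-TS, the matching wild-type form. Each was represented by 2 footprint and 2 mRNA libraries, which makes 8 of the 32 libraries in the series. Both strains were grown in SC medium to an OD600 of about 0.7, shifted to 37 °C, and given cycloheximide, a drug that stalls elongating ribosomes, at 100 µg/ml for 2 min before harvest. Each group is a single strain, and the amino acid changes of the allele and the length of the shift are not given in the sources used here. A separate experiment at 37 °C held the same allele without DBP1, as a ded1-ts dbp1Δ double mutant and a dbp1Δ single mutant. Other strains used below are ded1-ts with DBP1 on a high-copy plasmid (hcDBP1) at 37 °C, and a cold-sensitive mutant, ded1-cs, against DED1-CS at 15 °C.

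Ded1 is an essential DEAD-box RNA helicase that helps the small ribosomal subunit attach to mRNA and move through structured 5′ leaders to the start codon, and Dbp1 is its closest relative in yeast. In ribosome profiling, the mRNA pieces that ribosomes shield from RNase I are sequenced, so footprints report how many ribosomes sit on a gene's mRNA. Translational efficiency (TE) is the number of footprints per mRNA. A gene can therefore lose footprints because it has less mRNA or because each mRNA carries fewer ribosomes, and both assays are given for each gene described here.

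All levels are log2 normalized levels, and all changes are log2 changes of ded1-ts over DED1-TS, from the authors' deposited table, in which 1 unit is 2-fold. The authors pooled the 2 libraries of each strain and assay into 1 value, so a gene has 4 levels in all, no spread between replicates can be given and no difference was tested. A gene is called higher or lower where its change was at least 2-fold. Read depth is unknown. The deposited levels summed to 39534435 in ded1-ts and 43160176 in DED1-TS for footprints, and to 19751823 in ded1-ts and 22650387 in DED1-TS for mRNA. Giving both strains equal sums would add 0.127 to every footprint change and 0.198 to every mRNA change and take 0.071 from every TE change. Because values are relative within an assay, less RNA per cell or fewer ribosomes per cell cannot be seen in them.

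DED1 had footprint levels of 15.95 in ded1-ts and 16.94 in DED1-TS, and mRNA levels of 14.1 in ded1-ts and 15.3 in DED1-TS. In the authors' deposited table its footprints changed by −0.99, its mRNA by −1.17 and its TE by 0.18, so the mutant strain held less DED1 mRNA, at close to the same number of footprints per mRNA. DBP1 went the other way, with footprint levels of 10.42 in ded1-ts and 9.05 in DED1-TS and mRNA levels of 9.8 in ded1-ts and 8.5 in DED1-TS, or 2.52-fold more mRNA in ded1-ts. The substitutions that make the allele heat-sensitive cannot be seen in levels per gene. Genes of a cells were well above the minimum in both strains: the pheromone receptor STE2 had footprint levels of 13.24 in ded1-ts and 13.33 in DED1-TS, the protease BAR1 13.18 in ded1-ts and 13.49 in DED1-TS, and the alpha-factor gene MF(ALPHA)1 was under the level minimum at 4.23 in ded1-ts and 5.68 in DED1-TS. Of other genes specific to alpha cells, STE3 had footprint levels of 9.29 in ded1-ts and 8.89 in DED1-TS, and SAG1 7.73 in ded1-ts and 6.2 in DED1-TS, both above the minimum. MFA1, which encodes a-factor, differed between the strains, with footprint levels of 11.08 in ded1-ts and 9.38 in DED1-TS.

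In TE, 334 genes (6.4% of 5222) were lower and 149 (2.85%) were higher in ded1-ts. In footprints, 347 genes (6.64%) were lower and 349 (6.68%) higher, and in mRNA, 167 (3.2%) were lower and 217 (4.16%) higher. Scaling both strains to equal sums left TE at 382 lower and 117 higher, but gave 278 lower and 472 higher footprints and 96 lower and 401 higher mRNAs, so the balance between higher and lower calls of footprints and mRNA depends on the scaling. Most genes moved little: 4304 stayed within 2-fold in both TE and footprints, and the quartiles of the TE changes were −0.27 and 0.38. The whole TE range was −3.24 to 3.48, and the median changes were 0.08 in TE, 0.03 in footprints and −0.00 in mRNA.

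The 334 genes with lower TE were split evenly by footprints. In 168 of them footprints were also at least 2-fold lower, and in 166 they stayed within 2-fold. Their mRNA was more often up than down: 41 had at least 2-fold more mRNA in ded1-ts, 4 had at least 2-fold less, and 273 (81.7%) had an mRNA change above 0, against 49.8% of all analysed genes. The median member had a footprint change of −1.01 and an mRNA change of 0.49. TE and mRNA change share the mRNA libraries, which alone ties them together, so the same genes were also read in the strains without DBP1, which share no library with these: there 248 of the 322 with a value (77.0%) had an mRNA change above 0, against 50.7% of all 5002 genes with a value. Among the 149 genes with higher TE, 71 (47.7%) had an mRNA change above 0, 93 had at least 2-fold more footprints and 56 had footprints within 2-fold.

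**Figure D1:**
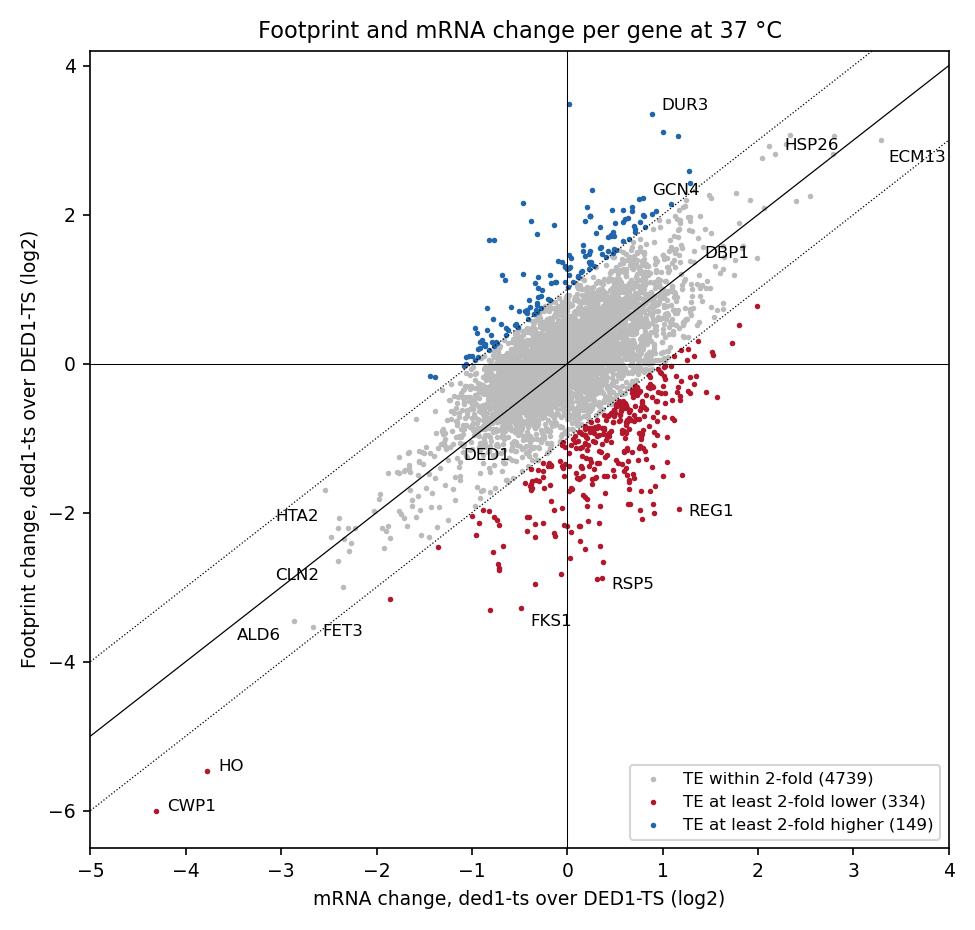
Footprint change (vertical axis, log2) against mRNA change (horizontal axis, log2) of ded1-ts over DED1-TS for 5222 genes, 1 point per gene. The solid diagonal marks equal change in both assays and the dotted lines a 2-fold change in TE. Red points (334, TE lower) lie mostly right of 0 in mRNA, CWP1 and HO are far down in both assays, and FKS1 and RSP5 are low in footprints with mRNA changes of −0.49 and 0.36.

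The lowest TE changes were those of RSP5, RPO31, REG1 and SEC7. RSP5, which encodes an essential ubiquitin ligase of endocytosis and protein sorting, had footprint levels of 10 in ded1-ts and 12.87 in DED1-TS, and mRNA levels of 11.9 in ded1-ts and 11.6 in DED1-TS. Its footprints per mRNA were thus 9.44-fold lower in the mutant, with slightly more mRNA. RPO31, which encodes RNA polymerase III's largest subunit, followed, with footprint levels of 9.76 in ded1-ts and 12.65 in DED1-TS over mRNA levels of 12.1 in ded1-ts and 11.8 in DED1-TS, 9.17-fold lower in TE. REG1 targets the Glc7 phosphatase to its substrates in glucose repression. It had footprint levels of 9.7 in ded1-ts and 11.65 in DED1-TS while its mRNA was higher, at 12.6 in ded1-ts and 11.5 in DED1-TS, so TE was 8.66-fold lower. SEC7, the Arf exchange factor of the Golgi, had footprint levels of 11.03 in ded1-ts and 13.68 in DED1-TS and mRNA levels of 12.3 in ded1-ts and 12 in DED1-TS, 8.15-fold lower in TE. In all 4 genes the low TE came with fewer footprints and with mRNA as high or higher.

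The next in order were LEC1, SAN1, YTA12, FKS1, SSK2, IST2, SSD1, DUF1, ATF1, SBE22 and RHO2, whose TE was 6.17 to 7.52-fold lower. SSK2, a kinase of the osmosensing HOG pathway, had 1.86-fold more mRNA in ded1-ts, with footprint levels of 8.86 in ded1-ts and 10.74 in DED1-TS. SSD1, an RNA-binding protein that holds back translation of cell wall mRNAs, had 1.69-fold more mRNA, with footprint levels of 11.17 in ded1-ts and 13.13 in DED1-TS. IST2, which tethers the endoplasmic reticulum to the plasma membrane, showed the loss of footprints with no shift in mRNA: its footprint levels were 10.37 in ded1-ts and 13.2 in DED1-TS, and its mRNA level was 12.2 in both strains. It was the lowest of the 2084 genes whose mRNA changed by less than 0.3 in size, of which 90 were lower and 43 higher in TE. The next lowest of these genes were ATF1, SBE22, HOL1 and APD1, at −2.67, −2.63, −2.52 and −2.33 in the authors' deposited table.

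**Figure D2:**
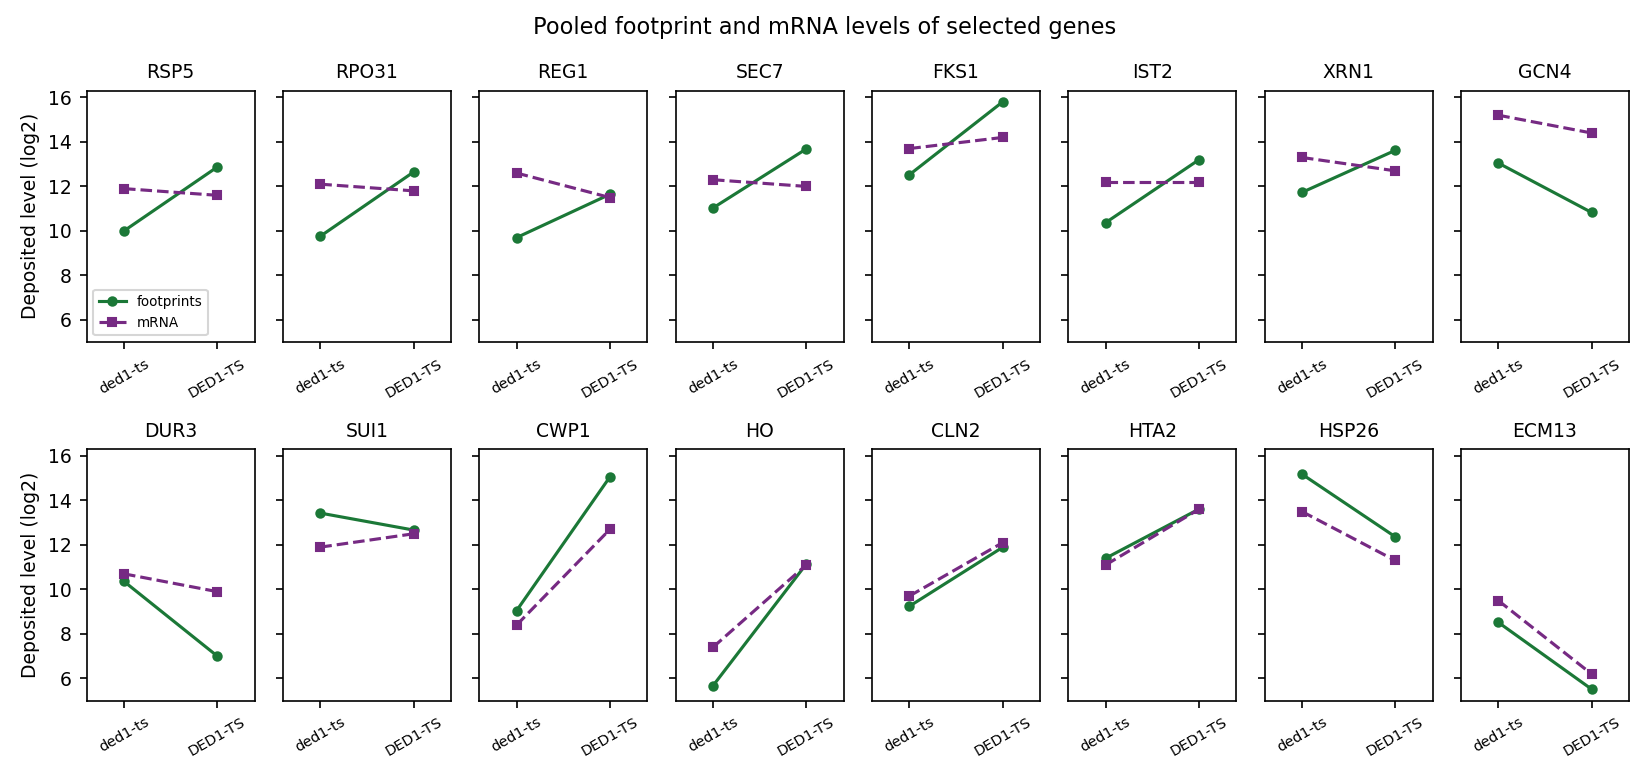
Deposited pooled levels (vertical axis, log2) of footprints (green circles, solid line) and mRNA (purple squares, dashed line) in ded1-ts (left) and DED1-TS (right), 1 panel per gene, with no error because the authors pooled the libraries. For RSP5, RPO31, REG1, SEC7, IST2 and XRN1 the footprint line is steep while the mRNA line is flat or slopes the other way, and for CWP1, HO, CLN2, HTA2, HSP26 and ECM13 both lines slope the same way.

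Genes of cell wall synthesis had the lowest median TE change of the 47 gene lists examined. Yeast builds its wall from glucan made at the plasma membrane and from chitin, under the control of the Pkc1 kinase pathway. Of 32 analysed genes of this list, 11 (34.4%, against 6.4% of all genes) were lower and 1 (3.1%, against 2.85%) was higher in TE. The median TE change of the list was −0.72, against 0.08 over all genes. FKS1, the catalytic subunit of 1,3-beta-glucan synthase, had footprint levels of 12.52 in ded1-ts and 15.8 in DED1-TS and mRNA levels of 13.7 in ded1-ts and 14.2 in DED1-TS, that is, 9.67-fold fewer footprints on 1.4-fold less mRNA. PKC1 itself had footprint levels of 9.56 in ded1-ts and 11.04 in DED1-TS with 1.61-fold more mRNA, 4.49-fold lower in TE. KRE6, which acts in 1,6-beta-glucan synthesis, and CHS3, the main chitin synthase, were 3.71-fold and 3.51-fold lower in TE, with mRNA changes of −0.25 and −0.34 in the authors' deposited table.

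The other wall genes with lower TE were ROM2, GSC2, LRG1, WSC2, SKN1, BEM2 and MTL1. ROM2, an exchange factor that activates Rho1, and GSC2, the alternative glucan synthase, kept their footprints within 2-fold while their mRNA was 2.15-fold and 2.56-fold higher in ded1-ts. GSC2 footprint levels were 13.13 in ded1-ts and 13.3 in DED1-TS, over mRNA levels of 13.9 in ded1-ts and 12.6 in DED1-TS. FKS3 was the member with higher TE, with a footprint level of 8.25 in ded1-ts and 6.2 in DED1-TS.

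Signalling by Ras, cAMP and glucose repression stood next to it. Of 28 analysed genes, 5 (17.9%, against 6.4% of all genes) were lower and 0 were higher in TE, with a median of −0.61. At least 2-fold more mRNA was found for 8 (28.6%, against 4.16%), and 0 had less. With equal sums 9 had more mRNA, but so did 401 of all 5222 genes. Besides REG1, the lower genes were TPK2, a catalytic subunit of protein kinase A, at 4.71-fold, PDE2, the high-affinity cAMP phosphodiesterase, at 3.4-fold, GPR1, the glucose receptor, at 2.77-fold, and IRA1, which turns Ras off, at 2.25-fold. TPK2 had footprint levels of 8.81 in ded1-ts and 10.4 in DED1-TS, and PDE2 9.83 in ded1-ts and 11 in DED1-TS. The mRNAs that were higher included those of ADR1 and CAT8, activators of genes that glucose represses: ADR1 had an mRNA level of 12.1 in ded1-ts and 10.3 in DED1-TS and 2.29-fold more footprints. GPR1, REG1 and CDC25, which activates Ras, were also among the 8 with more mRNA, and GPR1 footprint levels were close, at 10.23 in ded1-ts and 10.41 in DED1-TS.

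Ubiquitin ligases had 7 lower (25%, against 6.4% of all genes) and 0 higher of 28 in TE, with a median of −0.11. After RSP5 came SAN1, a nuclear quality-control ligase, with footprint levels of 8.49 in ded1-ts and 10.58 in DED1-TS, and GRR1, the F-box protein that marks G1 cyclins for degradation, with 9.05 in ded1-ts and 10.48 in DED1-TS. DMA1, ASI1, UFD2 and UBR2 were the other 4. Ubiquitin proteases had 3 lower of 19 (15.8%, against 6.4% of all genes), or 5 with equal sums. Of the proteasome, which degrades the marked proteins, 0 of 14 genes of the core and 0 of 19 of the regulatory particle passed 2-fold in TE in either direction, where 6.4% of all genes were lower, and the difference from the ligases was not tested.

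Among 24 genes of vesicle coats and Arf exchange factors, 5 (20.8%, against 6.4% of all genes) were lower and 0 higher in TE. They were SEC7, GEA2, another Arf exchange factor, SEC21, a subunit of COPI, and SEC16 and SEC23 of the COPII coat. GEA2 had footprint levels of 10.85 in ded1-ts and 12.14 in DED1-TS. Among 45 nuclear pore and karyopherin genes, 5 (11.1%, against 6.4% of all genes) were lower and 0 higher: MSN5, PSE1, CRM1 and KAP122, which carry cargo through the pore, and the pore protein NUP100. CRM1, the main exportin, had footprint levels of 12.85 in ded1-ts and 13.82 in DED1-TS over mRNA levels of 12.7 in ded1-ts and 12.2 in DED1-TS.

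RNA polymerase subunits split within complexes. The median TE change of the 31 genes was 0.01, yet 5 (16.1%, against 6.4% of all genes) were lower. They were the largest subunits of all 3 nuclear RNA polymerases, RPO31, RPA190 and RPO21, together with RPB2 and RPB7 of RNA polymerase II. RPA190 had footprint levels of 12.11 in ded1-ts and 14.02 in DED1-TS and RPO21 13.05 in ded1-ts and 14.4 in DED1-TS, with mRNA of all 3 largest subunits 1.24 to 1.49-fold higher in ded1-ts. RPB10, a small subunit that the polymerases share, was higher in TE, with footprint levels of 11.21 in ded1-ts and 10.91 in DED1-TS over mRNA levels of 8.6 in ded1-ts and 9.4 in DED1-TS. Of 17 genes of the vacuolar proton pump 1 was lower and 1 higher in TE (5.88% each, against 6.4% lower and 2.85% higher over all genes), STV1 at −2.30 and VMA10 at 1.36 in the authors' deposited table. In the F1 part of the ATP synthase, ATP1 and ATP2, the alpha and beta subunits, were at −1.66 and −1.60 in the authors' deposited table, while the 17 other synthase genes stayed within 2-fold.

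Families of membrane transporters were uneven, each taken whole, whichever membrane its members sit in. PMA1, the proton pump that energizes uptake, had footprint levels of 17.28 in ded1-ts and 18.85 in DED1-TS and was 2.29-fold lower in TE. Of 18 P-type ATPase genes 4 (22.2%, against 6.4% of all genes) were lower and 0 higher. They included the lipid flippase DNF2 at 4.57-fold, and PMR1, whose frame overlaps another gene so that its reads are uncertain. Of 20 ABC transporters 4 (20%, against 6.4% of all genes) were lower in TE, led by SNQ2 at −2.48 in the authors' deposited table. At least 2-fold more footprints were found for 7 of the 20 (35%, against 6.68% of all genes), among them PDR12 and PDR15. Of 28 amino acid, ammonium and urea permeases 6 (21.4%, against 6.4% of all genes) were lower, including the ammonium permease MEP3 and the tryptophan permease TAT2, and 1 was higher. That 1 was DUR3, the urea permease, with footprint levels of 10.36 in ded1-ts and 7.0 in DED1-TS and mRNA levels of 10.7 in ded1-ts and 9.9 in DED1-TS, which is 10.2-fold more footprints in ded1-ts on 1.84-fold more mRNA.

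**Figure D3:**
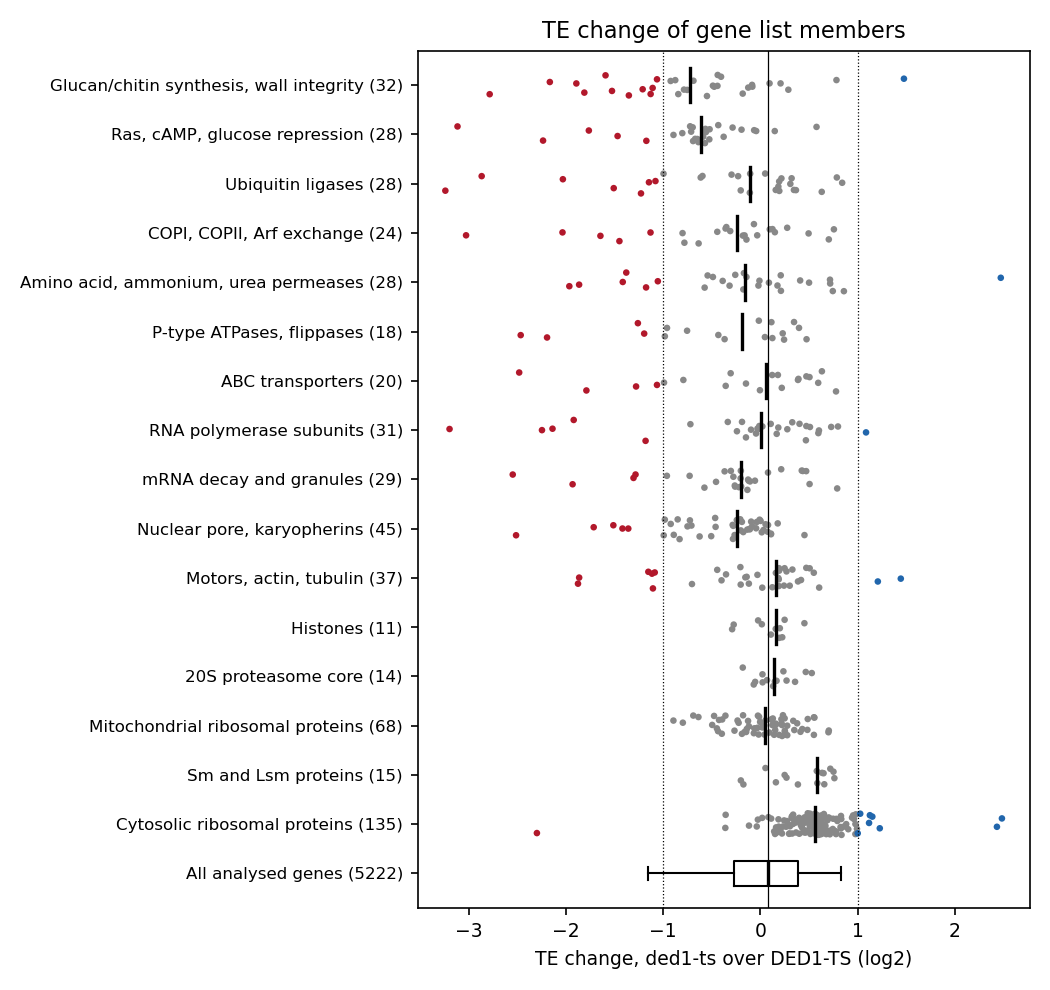
TE change of ded1-ts over DED1-TS (horizontal axis, log2) for the analysed members of selected gene lists, 1 point per gene with the number of members in brackets, red where at least 2-fold lower and blue where at least 2-fold higher. Black bars are list medians, the vertical line is the median of all genes, dotted lines mark 2-fold, and the box at the bottom shows the median, quartiles and 5th to 95th percentiles of all 5222 genes. The wall synthesis list has its median at −0.72 and the cytosolic ribosomal proteins at 0.56.

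In the machinery of translation and mRNA decay, XRN1, the main cytoplasmic 5′ to 3′ exonuclease, had footprint levels of 11.73 in ded1-ts and 13.62 in DED1-TS and 1.58-fold more mRNA, 5.84-fold lower in TE. PBP1, PAN2 and NOT3 were the other 3 of 29 decay and granule genes with lower TE (13.8% in all, against 6.4% of all genes). PAB1, the poly(A)-binding protein, had footprint levels of 13.72 in ded1-ts and 15.25 in DED1-TS, 2.41-fold lower in TE. Among 17 other initiation factor genes, 0 were lower and 2 (11.8%, against 2.85% of all genes) were higher, SUI1 (eIF1) and TIF11 (eIF1A). SUI1 had footprint levels of 13.43 in ded1-ts and 12.67 in DED1-TS over mRNA levels of 11.9 in ded1-ts and 12.5 in DED1-TS. TIF11 had footprint levels of 12.79 in ded1-ts and 12.69 in DED1-TS over mRNA levels of 11 in ded1-ts and 12 in DED1-TS. CAF20, an inhibitor that binds eIF4E, was 2.31-fold higher in TE with 2.62-fold less mRNA. So the raised TE of TIF11 and CAF20 came with less mRNA rather than with more footprints.

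Cytosolic ribosomal protein genes had mRNA changes that were small but mostly below 0, in 131 of 135 genes, of which 2 (1.48%, against 3.2% of all genes) were at least 2-fold lower. Their median changes were −0.57 in mRNA, −0.02 in footprints and 0.56 in TE. In TE 8 (5.93%, against 2.85% of all genes) were higher and 1 (0.74%, against 6.4%) was lower. The lower one was RPL22B, at −2.30 in the authors' deposited table. Of the 8 higher ones, RPL41A and RPL41B encode the same short peptide and could not be told apart in the footprints, where both are listed at 13.09 in ded1-ts and 11.43 in DED1-TS, and RPS30A, RPS30B, RPL35A, RPL35B and RPL42B also belong to near-identical pairs, as do many genes of the list. With equal sums the median mRNA change of the list was −0.37 and 0 were at least 2-fold lower. Mitochondrial ribosomal protein genes had a similar mRNA median, −0.43, but a TE median of 0.05 and 0 of 68 calls in TE. Genes for cytosolic aminoacyl-tRNA synthetases were at −0.57 in mRNA and 0.12 in TE, with 0 of 20 past 2-fold in TE. Sm and Lsm proteins, which bind small nuclear RNAs and mRNA ends, had a TE median of 0.58 with 0 of 15 past 2-fold.

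GCN4, the activator of amino acid biosynthesis genes, whose mRNA is known for upstream reading frames that control its translation, was at least 2-fold higher in footprints and in TE, with an mRNA change of 0.79 in the authors' deposited table. Its footprint levels were 13.05 in ded1-ts and 10.83 in DED1-TS and its mRNA levels 15.2 in ded1-ts and 14.4 in DED1-TS, which is 4.66-fold more footprints and 2.69-fold higher TE. Of the 55 analysed genes of the list of amino acid genes under Gcn4, GCN4 included, 4 had at least 2-fold more footprints and 4 fewer. These shares, 7.27% each, were near the 6.68% higher and 6.64% lower of all genes. ARG7 and ASN1 were among those with more. MET6, the methionine synthase, went furthest down, with footprint levels of 12.66 in ded1-ts and 15.81 in DED1-TS and mRNA levels of 11.1 in ded1-ts and 13.0 in DED1-TS. PCL5, a cyclin that directs Gcn4 to degradation, had footprint levels of 10.45 in ded1-ts and 7.51 in DED1-TS and 4.9-fold more mRNA.

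Some of the other genes with the highest TE had few footprints in DED1-TS. YCT1, a cysteine transporter, had footprint levels of 8.38 in ded1-ts and 6.05 in DED1-TS over mRNA levels of 10 in ded1-ts and 9.7 in DED1-TS, 4.17-fold higher in TE. ADY3 and MSH5, which act in sporulation and meiosis, had footprint levels of 7.43 and 6.73 in ded1-ts and 4.32 and 4.63 in DED1-TS. In DED1-TS alone both were below the level minimum. They passed it on the mean of both strains only through ded1-ts, where they were high, so their place among the 149 is uncertain. DAN4, a cell wall mannoprotein, had footprint levels of 9.11 in ded1-ts and 6.05 in DED1-TS. Without any level minimum 234 genes had higher TE, against 149 with it. The ASP3 genes of asparaginase are listed as 4 identical copies, each with footprint levels of 12.46 in ded1-ts and 10.49 in DED1-TS, and count as 4 of the 149. TPM1 and TPM2, the tropomyosins of actin cables, were 1.21 and 1.44 in TE in the authors' deposited table. In their list of 37 cytoskeletal genes 6 others (16.2%, against 6.4% of all genes), such as the myosin MYO2 and the formin BNI1, were lower.

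Several of the largest footprint losses came with large mRNA losses. CWP1, a mannoprotein of the cell wall, had footprint levels of 9.05 in ded1-ts and 15.06 in DED1-TS and mRNA levels of 8.4 in ded1-ts and 12.7 in DED1-TS, which is 64.1-fold fewer footprints on 19.9-fold less mRNA. HO, the endonuclease of mating-type switching, had footprint levels of 5.67 in ded1-ts and 11.14 in DED1-TS and mRNA levels of 7.4 in ded1-ts and 11.1 in DED1-TS. Both genes lost more footprints than mRNA and were also called lower in TE, each at −1.69 in the authors' deposited table. ALD6, the main cytosolic acetaldehyde dehydrogenase, had 7.27-fold less mRNA, with footprint levels of 12.67 in ded1-ts and 16.13 in DED1-TS. FET3, the ferroxidase of high-affinity iron uptake, had 6.34-fold less mRNA, with footprint levels of 9.57 in ded1-ts and 13.1 in DED1-TS. DBP2, another DEAD-box helicase gene, had 5.11-fold less. Of 29 cell wall mannoprotein genes, 10 (34.5%, against 6.64% of all genes) had at least 2-fold fewer footprints and 1 (3.45%, against 6.68%) had more. In mRNA 6 (20.7%, against 3.2%) were lower, PRY2, CIS3, GAS3, GAS1 and CWP2 beside CWP1, and 2 (6.9%, against 4.16%) were higher.

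Histone genes were lower as a group. Histone mRNA is made in S phase, when chromatin is copied. Of 11 core, variant and linker histone genes, 10 (90.9%, against 3.2% of all genes) had at least 2-fold less mRNA. At least 2-fold fewer footprints were found for 9 (81.8%, against 6.64%), and the median mRNA change was −1.65. HTA2 had mRNA levels of 11.1 in ded1-ts and 13.6 in DED1-TS and footprint levels of 11.4 in ded1-ts and 13.61 in DED1-TS, and HTB2 11 in ded1-ts and 13.3 in DED1-TS in mRNA. CSE4, the centromeric histone, was the member that stayed within 2-fold, at −0.82 in the authors' deposited table. TE changed little, with 0 of 11 past 2-fold. Pairs that encode the same protein, such as HHT1 and HHT2, can share reads. With equal sums the same counts were 10 in mRNA and 8 in footprints.

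Genes of the step from G1 to S phase did not move as a group, with 8 mRNA changes below 0 and 7 above 0 among 15. At least 2-fold less mRNA was found for 4 of them (26.7%, against 3.2% of all genes). They were the G1 cyclins CLN1 and CLN2 and the S-phase cyclins CLB5 and CLB6. With equal sums the count was 3, since CLB5 then stayed within 2-fold. CLN2 had mRNA levels of 9.7 in ded1-ts and 12.1 in DED1-TS, CLB6 6.9 in ded1-ts and 9.2 in DED1-TS, and CLN1 9.4 in ded1-ts and 10.7 in DED1-TS. CLN3, the cyclin upstream of them, was within 2-fold, with footprint levels of 10.38 in ded1-ts and 10.97 in DED1-TS and a TE change of −0.85 in the authors' deposited table. PCL1, a G1 cyclin of the Pho85 kinase that stood among the 10 lowest mRNAs, had 9.6 in ded1-ts and 12 in DED1-TS. In DNA replication and cohesion, 6 of 47 genes (12.8%, against 3.2% of all genes) had less mRNA, among them RNR1, MCD1 and POL30. With equal sums the count was 4. Lower TE was found for 4 (8.51%, near the 6.4% of all genes), with the cohesin loader SCC2 the lowest. Of 31 mitotic genes 8 (25.8%, against 6.64% of all genes) had fewer footprints. CLB2, the main mitotic cyclin, had footprint levels of 8.44 in ded1-ts and 10.71 in DED1-TS. Its mRNA levels were 9.9 in ded1-ts and 10.1 in DED1-TS, so its loss was in TE.

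**Figure D4:**
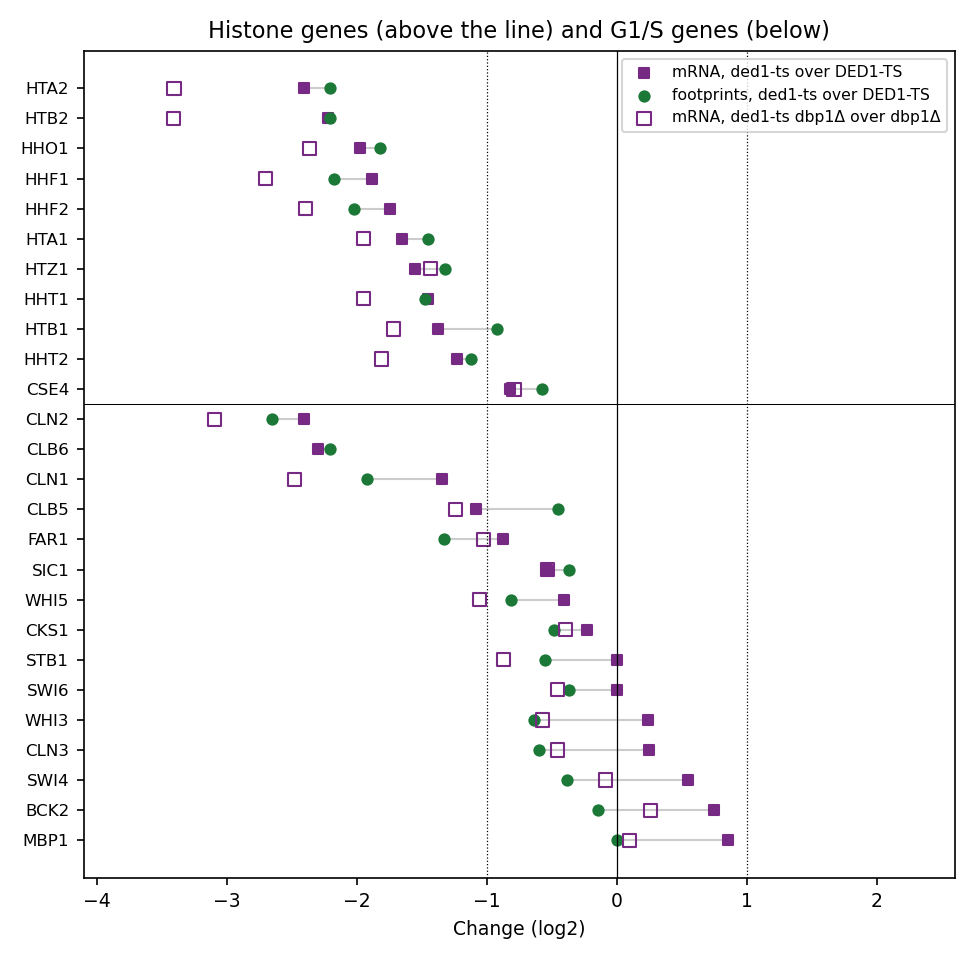
Log2 change (horizontal axis) of mRNA (filled squares) and footprints (circles) in ded1-ts over DED1-TS, and of mRNA in ded1-ts dbp1Δ over dbp1Δ (open squares), for the 11 histone genes and the 15 G1 and S genes, 1 row per gene. Dotted lines mark 2-fold. For HTA2, HTB2, CLN2 and CLB6 the footprint and mRNA symbols sit close together at −2.20 or below, while CLN3 has a footprint change of −0.60 and an mRNA change of 0.25. CLB6 has no value without DBP1.

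Heat shock genes that passed 2-fold were mostly higher in ded1-ts than in DED1-TS, which was at 37 °C as well. Of 33 heat shock protein genes, 9 (27.3%, against 6.68% of all genes) had at least 2-fold more footprints and 1 (3.03%, against 6.64%) had fewer. In mRNA 8 (24.2%, against 4.16%) were higher and 1 (3.03%, against 3.2%) was lower. HSP26, a small chaperone that binds unfolded proteins, had footprint levels of 15.18 in ded1-ts and 12.37 in DED1-TS and mRNA levels of 13.5 in ded1-ts and 11.3 in DED1-TS. HSP30, a plasma membrane stress protein, had 5.39-fold more footprints, with levels of 13.13 in ded1-ts and 10.7 in DED1-TS. HSP12, also a stress gene, was the exception, with footprint levels of 13.51 in ded1-ts and 14.71 in DED1-TS. SSA3, an inducible Hsp70, had 3.38-fold more footprints on 1.23-fold more mRNA.

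Fatty acid oxidation genes of the peroxisome were also higher. In footprints 7 of 17 (41.2%, against 6.68% of all genes) were at least 2-fold up and 1 (5.88%, against 6.64%) was down. In mRNA 4 (23.5%, against 4.16%) were up. POX1, the acyl-CoA oxidase, had mRNA levels of 8.1 in ded1-ts and 5.6 in DED1-TS. The highest mRNA changes of all were those of ECM13, with mRNA levels of 9.5 in ded1-ts and 6.2 in DED1-TS, and NCA3, with 11.4 in ded1-ts and 8.6 in DED1-TS. OYE3, an NADPH oxidoreductase of the oxidative stress list, had 8.4-fold more footprints. Of the 29 genes of that list, 6 (20.7%, against 6.68% of all genes) were higher in footprints and 0 lower.

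The same allele was next read without DBP1, as ded1-ts dbp1Δ over dbp1Δ, in libraries that share none with this comparison. There, 409 of 5002 genes (8.18%) were lower and 116 (2.32%) higher in TE, 419 (8.38%) lower and 359 (7.18%) higher in footprints, and 179 (3.58%) lower and 185 (3.7%) higher in mRNA. Genes low in TE were largely shared: of the 322 that were low in ded1-ts and had a value, 278 were low here as well, which is 86.3% of those and 68.0% of the 409, and all 322 had a TE change below 0, against 40.9% of all genes. Their median TE change was −1.41 with DBP1 and −1.69 without it. Genes high in TE were shared less often, 36 of 114, which is 31.6% of those and 31.0% of the 116, though 109 of the 114 had a change above 0, against 59.1% of all. The difference between both shares was not tested. In footprints 259 of 322 lower genes (80.4%) and 193 of 271 higher genes (71.2%) were shared, and in mRNA 95 of 151 (62.9%) and 97 of 180 (53.9%). Across the 5002 genes the TE changes of both comparisons had a Pearson's r of 0.83 and a Spearman's rho of 0.72, as a description, since genes are not independent replicates.

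**Figure D5:**
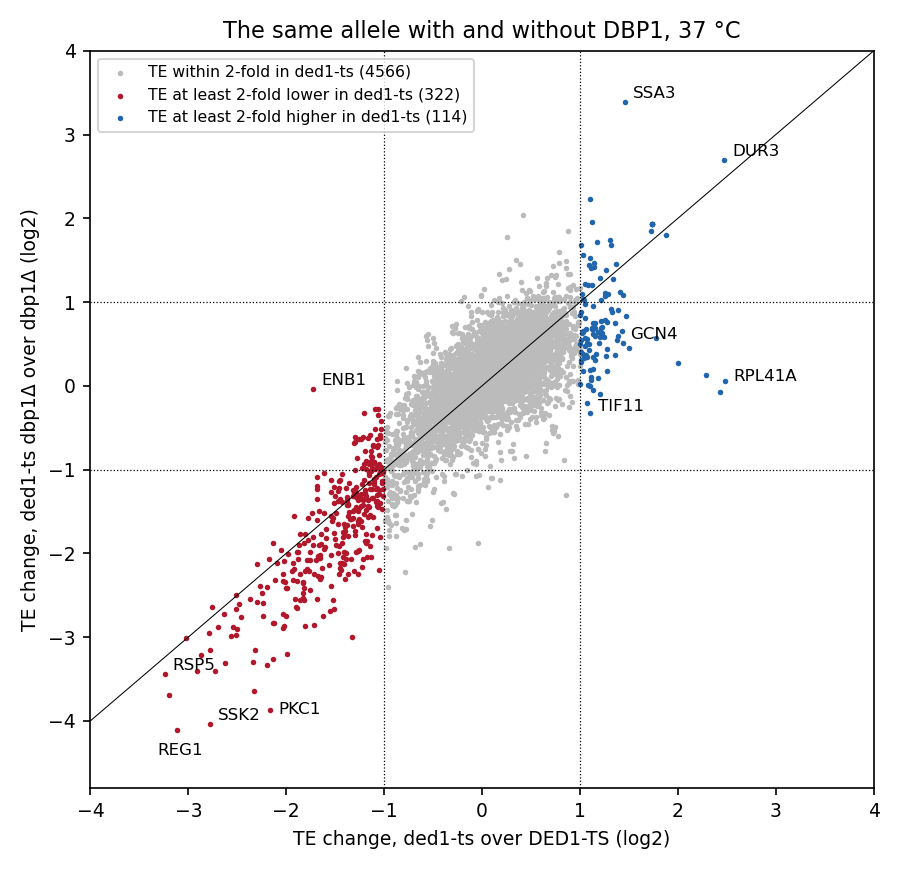
TE change of ded1-ts dbp1Δ over dbp1Δ (vertical axis, log2) against TE change of ded1-ts over DED1-TS (horizontal axis, log2) for 5002 genes, 1 point per gene. Red points are the 322 genes with lower TE and blue points the 114 with higher TE in ded1-ts, dotted lines mark 2-fold, and the diagonal marks equal change. Red points all lie below 0 on the vertical axis, while the blue ones spread from below 0 to above 3.

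Among named genes, REG1, SSK2 and PKC1 were at −3.11, −2.78 and −2.17 in TE with DBP1 and at −4.11, −4.04 and −3.87 without it, from the authors' deposited tables. RSP5 was at −3.44 and FKS1 at −3.16 without DBP1 by the same difference of the authors' deposited tables. Of the wall synthesis genes 10 of 30 were lower in TE without DBP1, where 8.18% of all genes were. Less mRNA was found there for 10 of 11 histone genes, against 3.58% of all genes. More mRNA was found there for 7 of 32 heat shock genes, against 3.7% of all genes. CWP1 had mRNA changes of −4.32 with DBP1 and −5.06 without it, and HO −3.78 with DBP1 and −3.98 without it, in the authors' deposited tables.

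Some results were not shared by the strains without DBP1. DED1 mRNA changed by −1.17 in ded1-ts over DED1-TS and by 1.67 in ded1-ts dbp1Δ over dbp1Δ, from the authors' deposited tables. Against the WT of that experiment it was at −0.95 in ded1-ts dbp1Δ and −2.63 in dbp1Δ in the authors' deposited tables, so it was below that WT in both strains. RPL41A, RPL41B and YOR192C-C, which had TE changes of 2.48, 2.43 and 2.29 in ded1-ts, had 0.06, −0.08 and 0.13 without DBP1 in the authors' deposited tables, TIF11 had −0.05 and RPB10 0.01. Of the 135 cytosolic ribosomal protein genes, 0 were higher in TE there, but their TE median of 0.48 was near the 0.56 with DBP1. Their mRNA median was −0.24 there and −0.57 with DBP1. Sm and Lsm genes had a TE median of 0.01 there. FET3 mRNA was at −0.79, and the siderophore transporter ENB1 was at −1.72 in TE with DBP1 and −0.04 without it, from the authors' deposited tables. Against that WT, FET3 mRNA was at 0.52 in ded1-ts dbp1Δ and 1.30 in dbp1Δ. ENB1 TE was at 0.81 in ded1-ts dbp1Δ and 0.85 in dbp1Δ, per the authors' deposited tables. Of 25 cell wall mannoprotein genes with a value, 8 were higher in TE without DBP1 and 2 lower. Over all genes 2.32% were higher and 8.18% lower. Against the WT of that experiment, CWP2 was at −0.24 in ded1-ts dbp1Δ and −1.25 in dbp1Δ in TE. GAS1 was at 0.36 in ded1-ts dbp1Δ and −0.65 in dbp1Δ, per the authors' deposited tables. SSA3 was also higher in TE there, at 1.46 with DBP1 and 3.39 without it in the authors' deposited tables. Against that WT, SSA3 was at 1.56 in ded1-ts dbp1Δ and −1.82 in dbp1Δ in TE, per the authors' deposited tables.

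In ded1-cs at 15 °C, which also shares no library, 1109 of 5071 genes (21.9%) were lower and 831 (16.4%) higher in TE. The lowest genes of ded1-ts were mostly low there: in the authors' deposited tables, RSP5 had a TE change of −3.24 in ded1-ts, against −2.44 in ded1-cs, RPO31 −3.20 in ded1-ts, against −2.47 in ded1-cs, and FKS1 −2.78 in ded1-ts, against −2.45 in ded1-cs. SSD1 was an exception among the lowest, with −2.72 in ded1-ts but −0.30 in ded1-cs by the authors' deposited tables. GCN4 had opposite signs, 1.43 in ded1-ts but −2.40 in ded1-cs in the authors' deposited tables. SFT2, a Golgi membrane protein gene, was at −0.77 in ded1-ts and −2.76 in ded1-cs, per the authors' deposited tables. PMA1 and CLN3 were at −1.19 and −0.85 in TE in ded1-ts, against −2.81 and −1.42 in ded1-cs, per the authors' deposited tables.

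High-copy DBP1 was read against the same DED1-TS libraries, so its values are set beside those of ded1-ts and not compared further. DBP1 mRNA was at 6.89 over DED1-TS with hcDBP1 and at 1.33 without it, in the authors' deposited tables. In TE, RSP5 was at −1.77 with hcDBP1 and −3.24 without it, REG1 at −2.01 with it and −3.11 without it, FKS1 at −1.37 with it and −2.78 without it, and RHO2 at −0.85 with it and −2.63 without it (the authors' deposited tables). ATF1 was at −2.53 with hcDBP1 and −2.67 without it, and GCN4 at 1.13 with it and 1.43 without it, in the authors' deposited tables. CWP1 mRNA was at −2.05 with hcDBP1 and −4.32 without it, and HSP26 mRNA at 1.58 with it and 2.18 without it, again in the authors' deposited tables.

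TE in the control strain gave an ordering of the genes in which length cancels. When the 5222 genes were put into 10 equal bins by footprints minus mRNA in DED1-TS, TE was lower in ded1-ts for 5.74% of the lowest bin and 9.75% of the highest, and higher for 10.7% of the lowest and 0.76% of the highest. This ordering uses the DED1-TS libraries that also enter the change. Ordered instead by TE in DED1-CS at 15 °C, which shares no library, TE was lower in ded1-ts for 8.66% of the lowest bin and 4.93% of the highest, and higher for 6.3% of the lowest and 1.18% of the highest. Between the lowest and highest bins the share of lower calls thus differed in opposite directions under the 2 orderings. In the first ordering the other 8 bins lay between 4.98% and 7.85%, so only the highest bin stood apart.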

How the data were processed

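Ribosome footprints and mRNA were sequenced from whole yeast cells, per the labels' protocols. CASAVA 1.8, TopHat2 2.1.0, Bowtie2 2.6.0, DESeq2 and the build sacCer2 are listed in the submitters' processing notes, with no role or order. The authors deposited log2 normalized levels and log2 changes, with the 2 libraries of a strain and assay pooled. The base was not stated, and 2 was inferred from how large the values are. The planned tests needed values per library and were not run, so a 2-fold threshold stands in, beside the level minimum of 50. Depth is unknown and no interval is given.

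Computed here, with Python 3.11.15, pandas 2.3.3 and NumPy 2.4.6, were calls, folds (2 to the power of the deposited change), list counts and medians over 47 lists, and the effect without DBP1, as the difference of 2 deposited tables that were assumed to share their WT. 4 WT level columns in the tables match no sample and were not used. The calling step was run on simulated data whose changes lay well past the threshold, with little noise. That run checks the counting only and says nothing about genes near 2-fold. The deposited TE change equalled the footprint change minus the mRNA change.

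Symbols came from a RefSeq table of another assembly, for 5430 of 5432 frames, so no positions are given. Of the analysed frames 84 overlap another annotated gene, and these were left out when genes were ranked. Sequence, length and base composition were not used here.

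The members, lists and rule for named genes were chosen with earlier results of these data known. The rule names DED1, DBP1, GCN4, PMA1, SFT2, CLN3, PAB1, the 15 genes at each end in TE, 10 at each end in footprints and in mRNA, 5 at each end in TE among genes with flat mRNA, up to 6 called members of each list per direction and measure, and all members of lists of 12 or fewer. ENB1, SSA3 and YOR192C-C were also picked for their departure without DBP1 after values were seen. RPP1 and RPN4, which encode no subunit of the ribosome or the proteasome, were taken out of those lists after values were seen. No multiple-test adjustment applies.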

Additional observations from a re-analysis of the deposited data

How the results depend on the processing

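No single library could be left out, and no paired analysis was possible because each deposited value pools both libraries of a strain and assay. Of the counts of higher and lower genes, 3 moved by more than 1.5 times: without a level minimum 234 genes had higher TE, and with columns scaled to equal totals 401 genes had higher and 96 lower mRNA. The alternatives run were no level minimum, a minimum of 200, a minimum on the arithmetic mean, equal totals and median centring. The others were differences of the level columns, and leaving out overlapping or copied frames. No named gene past 2-fold changed sign, but this was fixed beforehand. Each alternative leaves a gene's change as it is or shifts it by far less than 2-fold. The arithmetic mean, the frames left out for the shares, and median centring of both comparisons were chosen after seeing the data. Of 495 named genes, 11 crossed the 2-fold threshold with equal totals, 12 with median centring and 5 with level differences. Unknown depth limits the low genes most.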
